A study of Mus musculus with 4 samples.

Results

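A set of 10 genes of the TGF-β pathway, the ligands Tgfb1, Tgfb2 and Tgfb3, the receptors Tgfbr1, Tgfbr2 and Tgfbr3 and the Smads Smad2, Smad3, Smad6 and Smad7, were looked up in a list of Prdm6 binding sites. A gene counted as bound if the authors' annotation gave at least 1 peak its symbol, and a gene without such a peak counted as a gene without a peak. Of the 10 genes, 8 had a peak, and together they held 25 of the 13977 peaks. A peak was assigned to 20.0% of all protein-coding genes and to 46.1% of those of 50 kb or more, as 7 of the 10 are. By this annotation Smad7 with 6 peaks and Smad6 with 5, both inhibitory Smads, had the most, and Tgfb1 and Smad2 had none. The 2 peaks that passed a global irreproducible discovery rate (IDR) of 0.05 lay in an intron of Tgfbr3, at a matched −log10 p-value of 13.9, and 94.2 kb downstream of the start of Smad6, at 11.8. Over the whole list 3.33% of peaks passed that limit.

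The cells were cultured smooth muscle cells (SMCs) that the study's methods describe as taken from the aortic arch and ductus arteriosus of Prdm6 fl/fl mouse embryos late in gestation. The PRDM6 ChIP and Input groups had 2 libraries each, and the cells of both carried a lentivirus that overexpressed FLAG-tagged PRDM6, so the antibody against the tag recorded the added protein and not the endogenous one. The floxed allele was shared by all samples, and Input was the same chromatin sequenced without precipitation. The files used here held the matched peaks only, with no expression value by which the SMC label could be checked and no value of the Input group to set beside them.

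TGF-β ligands are secreted in a latent form and, once released, bring together a type II receptor, Tgfbr2, and a type I receptor, Tgfbr1, while the large co-receptor Tgfbr3 (betaglycan) presents ligand to them. The activated type I receptor phosphorylates Smad2 and Smad3, which enter the nucleus with Smad4, and the inhibitory Smads, Smad6 and Smad7, oppose this step in a negative feedback loop. In the vessel wall the pathway is known for promoting SMC differentiation and matrix production.

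The DNA under these peaks is shown for 8 summits, each as 201 bases of the plus strand of mm10 centred on the summit of the matched peak, with the motifs found on either strand in capitals. The motifs searched on both strands were the AP-1 sequence TGACTCA or TGAGTCA, the TEAD sequence AGGAATGC, AGGAATGT, GGGAATGC or GGGAATGT, and the SMAD sequence CAGAC. The SMAD palindrome GTCTAGAC and the words TTTCAT and TTTCCT were searched too, and the latter are not capitalised. The first pair passed the IDR limit of 0.05, and of these the Tgfbr3 window, chr5:107167328-107167528, held 1 SMAD sequence and the Smad6 window, chr9:63927739-63927939, held none of these motifs.
Tgfbr3 peak 2: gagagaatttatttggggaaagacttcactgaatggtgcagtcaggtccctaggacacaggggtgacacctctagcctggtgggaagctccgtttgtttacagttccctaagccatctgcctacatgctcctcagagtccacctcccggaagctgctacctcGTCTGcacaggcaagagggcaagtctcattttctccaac
Smad6 peak 4: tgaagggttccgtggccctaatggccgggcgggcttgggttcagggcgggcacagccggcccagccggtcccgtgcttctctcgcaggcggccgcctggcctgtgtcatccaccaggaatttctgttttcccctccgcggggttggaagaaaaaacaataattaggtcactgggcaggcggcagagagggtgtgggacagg

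The Tgfbr2 promoter windows, chr9:116175106-116175306 and chr9:116174450-116174650, were the windows of this gene set with an AP-1 sequence, and a SMAD sequence lay 4 bp from the second summit.
Tgfbr2 peak 1: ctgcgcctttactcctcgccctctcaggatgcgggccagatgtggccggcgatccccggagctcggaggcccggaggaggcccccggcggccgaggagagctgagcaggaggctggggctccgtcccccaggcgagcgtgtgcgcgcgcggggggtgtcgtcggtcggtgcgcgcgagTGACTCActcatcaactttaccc
Tgfbr2 peak 2: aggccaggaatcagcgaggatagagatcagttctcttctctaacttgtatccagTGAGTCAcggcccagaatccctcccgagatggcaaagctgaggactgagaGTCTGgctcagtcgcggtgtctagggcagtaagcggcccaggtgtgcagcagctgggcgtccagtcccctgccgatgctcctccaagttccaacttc

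The TEAD sequence was found in 3 windows, 1 in an intron of Tgfbr3 at chr5:107213800-107214000 and 2 beyond the 3′ end of Smad6 at chr9:63941857-63942057 and chr9:63896495-63896695. The last of them held 2 TEAD and 2 SMAD sequences.
Tgfbr3 peak 1: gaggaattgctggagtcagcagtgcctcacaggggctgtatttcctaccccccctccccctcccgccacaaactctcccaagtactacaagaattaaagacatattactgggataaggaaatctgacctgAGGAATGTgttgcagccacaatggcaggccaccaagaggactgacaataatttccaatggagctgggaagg
Smad6 peak 3: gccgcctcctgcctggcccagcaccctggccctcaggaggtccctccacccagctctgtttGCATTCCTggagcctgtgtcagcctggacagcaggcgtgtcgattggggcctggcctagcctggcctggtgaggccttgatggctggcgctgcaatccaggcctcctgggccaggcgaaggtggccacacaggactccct
Smad6 peak 5: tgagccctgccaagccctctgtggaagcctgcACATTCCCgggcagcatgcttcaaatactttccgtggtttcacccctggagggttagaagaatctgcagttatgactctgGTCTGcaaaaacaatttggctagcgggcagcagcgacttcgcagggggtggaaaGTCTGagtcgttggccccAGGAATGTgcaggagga

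The window in intron 1 of Tgfb3, chr12:86076612-86076812, is shown as the ligand window with a SMAD sequence closest to its summit, at 3 bp, with another at 34 bp. The window upstream of Tgfb2, not shown, also held 2, which overlapped each other 69 bp and 73 bp from the summit.
Tgfb3 peak 3: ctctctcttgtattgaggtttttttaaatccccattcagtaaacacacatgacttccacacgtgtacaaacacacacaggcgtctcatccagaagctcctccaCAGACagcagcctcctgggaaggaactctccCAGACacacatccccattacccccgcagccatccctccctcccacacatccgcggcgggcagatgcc

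The values of a peak are its −log10 p-value in either replicate, named first-listed and second-listed by their order in the list, the smaller of which the authors took as the matched value. Which of the numbered immunoprecipitations was listed first is not known. The IDR score grows with the reproducibility of a peak between the replicates, and its lowest value, 48, stands for a global IDR of 0.759. Where a p-value fell on the Poisson tail of a single background, the height of the peak in fragments could be read back from it, with a background mean of 2.61 fragments in the first-listed and 2.39 in the second-listed replicate. Over the whole list the median matched value was 5.53, and the median recovered heights were 14 and 13 fragments.

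A peak was assigned to 4389 of 21938 protein-coding genes, or 20.0%, and to 8 of these 10. Long genes collect more peaks, and 7 of the 10 span 50 kb or more. Of these 7, 6 had a peak, against 46.1% of all protein-coding genes of that length, and of the 3 shorter genes 2 had a peak, against 12.3%. A peak within the IDR limit of 0.05 was assigned to 2 of the 10 genes, against 1.63% of protein-coding genes. Among peaks, 2 of 25 (8%, 95% Wilson interval 2.22% to 25.0%) were within it, against 3.33% of the list, a share inside that interval. The genes were chosen with these peaks known, so the counts describe them and were not tested.

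**Figure D1:**
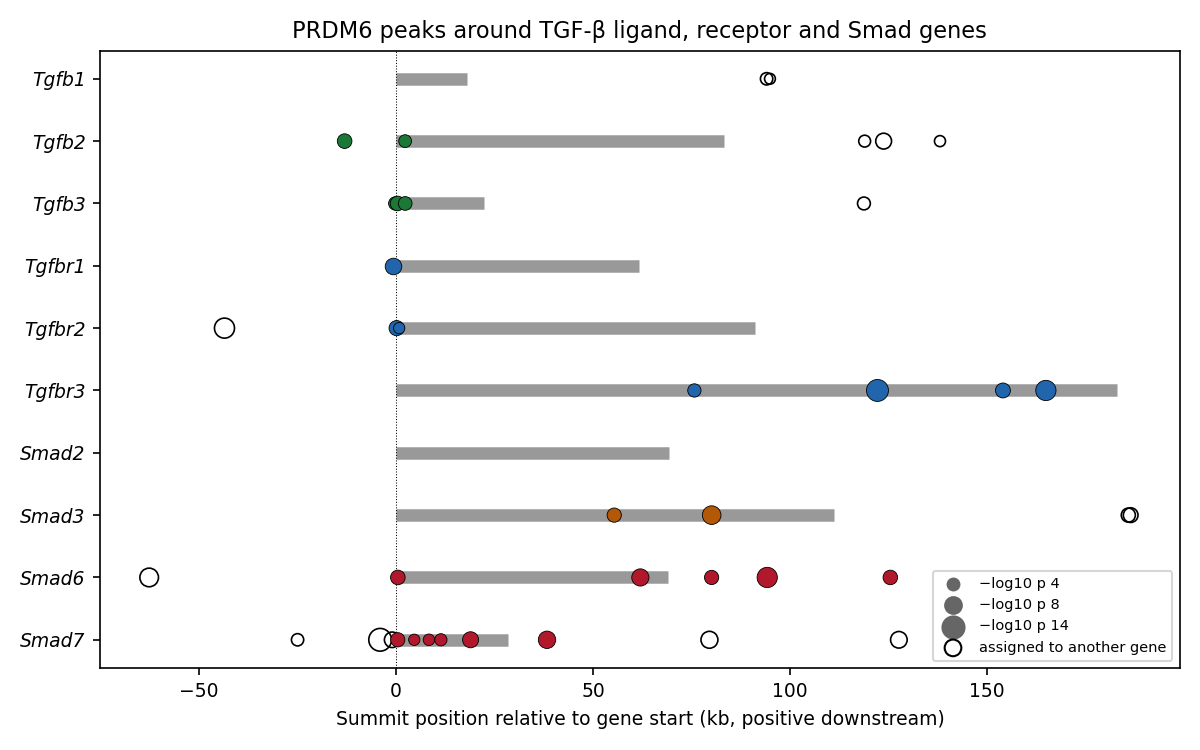
Position of the 25 peaks of each gene relative to its annotated start (horizontal axis, kb in the direction of transcription), with grey bars for the genes, filled points for their peaks by role and sized by matched −log10 p-value, and open circles for peaks within 100 kb given to other genes. The plot shows summits close to the start at Tgfb3, Tgfbr1, Tgfbr2, Smad6 and Smad7, and Tgfbr3 summits that began 75.7 kb inside the gene.

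Among the ligands, Tgfb2 and Tgfb3 had peaks of about the strength of the list. Their 5 peaks had matched values from 4.71 to 6.15 with a median of 5.42, against 5.53 for the list, 3 of them had the lowest score, and none had a global IDR at or under 0.05.

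Tgfb2 (chr1:186622792-186705989, minus strand) encodes the ligand isoform that is most prominent in the developing outflow tract. Its promoter peak (chr1:186703558-186703809) had −log10 p-values of 4.71 in the first-listed and 5.84 in the second-listed replicate, with heights of 11 and 12 fragments. The summit lay in intron 1, 2.3 kb downstream of the annotated start of the gene. The other peak (chr1:186718926-186719121) lay 13 kb upstream in intergenic DNA, with values of 6.15 and 9.54 and a global IDR of 0.468. Repeats masked in the reference took up 63.2% of the 201 bp window at its summit, the only window of the 25 that was more than 50% repeat, as were 7.81% of the list.

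Tgfb3 (chr12:86056745-86079041, minus strand) had 3 promoter peaks packed into 3.1 kb around its start. The strongest (chr12:86078237-86078973) was in exon 1, with values of 6.15 and 8.25 and heights of 13 and 15 fragments. The peak just upstream of the start (chr12:86079061-86079439) reached 6.15 and 5.10, and the one in intron 1 (chr12:86076374-86076878) reached 5.42 and 5.84. The flanking peaks both had the lowest score, and the upstream and exon 1 peaks also overlapped Gm48008, a processed transcript of the opposite strand.

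No peak was assigned to Tgfb1 (chr7:25687002-25705077), the isoform most widely expressed in adult tissue. The nearest peak lay 75.8 kb from the gene, in intron 4 of Axl, a receptor tyrosine kinase gene, and reached 4.71 and 4.39.

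All 3 receptors had a peak, but the type I and type II receptors were marked at the promoter and the co-receptor deep in its introns. The 7 receptor peaks had matched values from 3.70 to 13.9 with a median of 6.61.

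Tgfbr1 (chr4:47353222-47414931, plus strand) had a single peak (chr4:47352065-47352964), 900 bp wide, with its summit 0.8 kb upstream of the start. Its values were 8.52 and 7.92, and its global IDR was 0.295. No peak of any other gene lay within 100 kb of Tgfbr1.

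Tgfbr2 (chr9:116084293-116175360, minus strand) had 2 promoter peaks 285 bp apart. The stronger one (chr9:116174993-116175463) covered the start of the gene, with its summit in exon 1, values of 8.52 and 6.61, and heights of 16 and 13 fragments. Its summit window was 72.1% GC with 24 CpG dinucleotides, the most CpG-rich of the 25. The weaker one (chr9:116174420-116174707), in intron 1, had values of 3.70 and 4.39 and the lowest score. The AP-1 sequence shown above lay 78 bp from the first summit and 46 bp from the second.

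Tgfbr3 (chr5:107106570-107289629, minus strand) spans 183.1 kb and had no peak near its annotated start. Its strongest peak (chr5:107166777-107168415), in intron 4, was the widest of the 25 at 1639 bp and had nearly equal values of 13.9 in both replicates, a score of 640 and a global IDR of 0.0288. The peak in intron 14 (chr5:107124243-107125061) came next, with values of 12.03 and 11.81, heights of 20 and 19 fragments and a global IDR of 0.0776. The start of the cell-cycle kinase gene Cdc7 was nearer to it than that of Tgfbr3. The remaining peaks were lower in both replicates. The one in intron 3 (chr5:107213621-107214345) had values of 7.17 and 5.10, and the one in intron 12 (chr5:107135395-107136105) had values of 6.42 and 8.25. The annotation counted the intron 12 peak as a promoter because the start of a short transcript of Tgfbr3 lay 2.5 kb away.

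**Figure D2:**
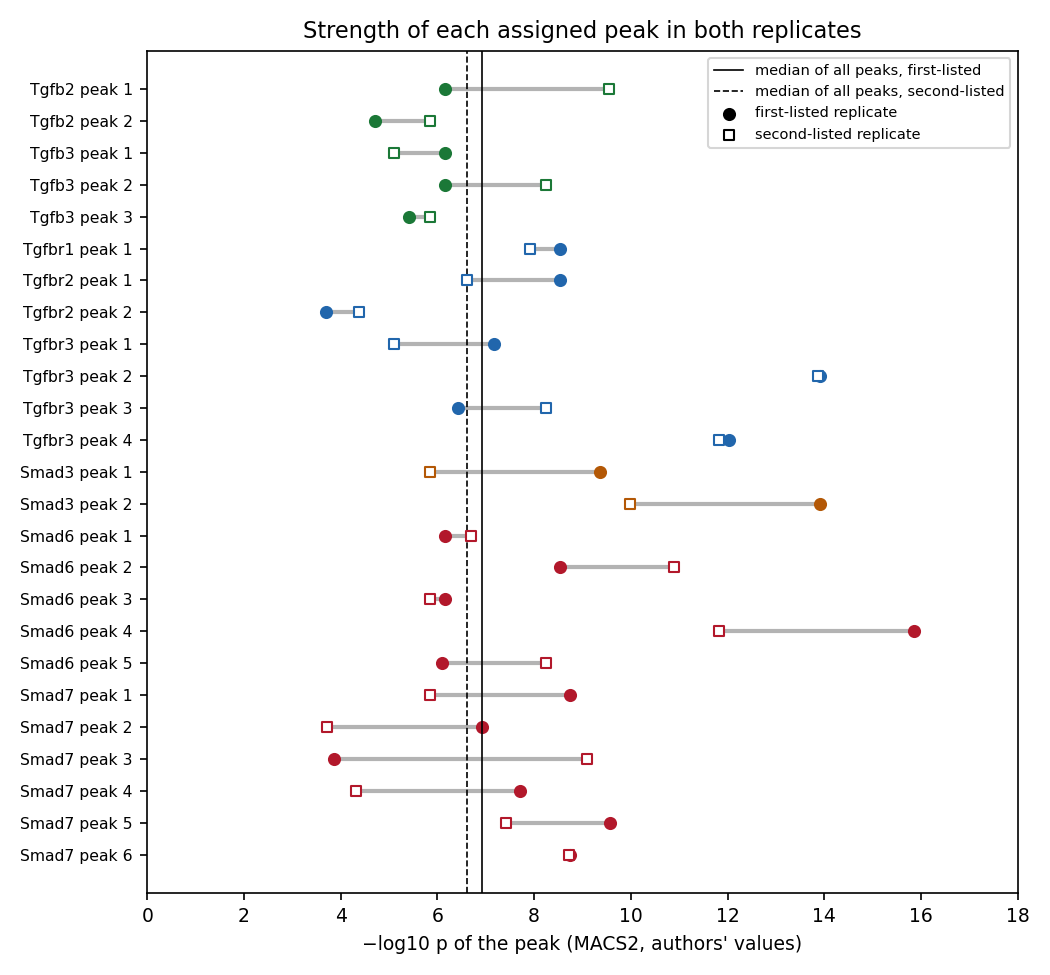
−log10 p-value of each of the 25 peaks in both replicates, first-listed (filled circles) and second-listed (open squares), coloured by role, with vertical lines at the medians of all peaks. The highest pairs of values belonged to Tgfbr3 peak 2 (13.9 in both) and Smad6 peak 4 (15.8 and 11.8), and Smad7 peak 3 had the largest ratio between the replicates (3.85 and 9.10).

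The receptor-activated Smads differed in coverage. Smad3 (chr9:63646767-63757994, minus strand), which binds DNA directly once phosphorylated, had 2 peaks, both in its long intron 1. The peak 80.1 kb inside the gene (chr9:63677586-63678245) had values of 13.9 and 9.98, heights of 22 and 17 fragments and a global IDR of 0.0977, and the start of Aagab was nearer to it than that of Smad3. The peak at 55.4 kb (chr9:63702461-63703133) was weaker in both replicates, at 9.37 and 5.84. Neither gene had a promoter peak, and Smad2 had no peak within 100 kb, the nearest being 144.3 kb away.

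The inhibitory Smads held 11 of the 25 peaks. Smad6 (chr9:63953076-64022059, minus strand), which acts mainly on BMP signals, had 5 peaks strung over 125.4 kb from its exon 1 to beyond its 3′ end. The strongest (chr9:63927734-63928081) lay outside the gene in exon 1 of the long noncoding RNA Gm36033, with values of 15.8 and 11.8, heights of 24 and 19 fragments, a score of 619 and a global IDR of 0.0324. The heights were 9.18 and 7.96 times the background. The intron 3 peak (chr9:63959895-63960341) was next, at 8.52 and 10.9 with heights of 16 and 18 fragments. The exon 1 peak (chr9:64021243-64021905) reached 6.15 and 6.70, so the promoter was weaker than both. The intergenic peaks 80.1 kb (chr9:63941794-63942518) and 125.5 kb (chr9:63896459-63896737) from the start had values of 6.15 and 5.84, and of 6.09 and 8.25.

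Smad7 (chr18:75367529-75395935, plus strand), which blocks the type I receptor and is itself induced by TGF-β, had the most peaks of the 10 genes. The 6 peaks were spread over 38.7 kb, from the start of the gene to beyond its 3′ end, and none had a global IDR at or under 0.05. The peak over the start (chr18:75367260-75368532) had values of 8.75 and 5.84. The strongest peak lay 3′ of the gene (chr18:75405612-75405944), with values of 8.75 and 8.72 and a global IDR of 0.251. Next was an intron 3 peak (chr18:75386362-75386846), at 9.57 and 7.42.

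The other 3 peaks of Smad7 had the lowest score and differed more between replicates. The peak 4.6 kb inside the gene had values of 6.92 and 3.71, the one at 8.4 kb had 3.85 and 9.10, and the one at 11.4 kb had 7.71 and 4.31. The peak at 8.4 kb was the only 1 of the 25 whose replicate values differed by a factor of 2 or more, against 12.9% of the list.

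Stronger binding near Smad7 and Tgfbr2 was assigned to other genes. A peak 4.0 kb upstream of the start of Smad7 (chr18:75363132-75364096) was stronger than any of the 25 in the second-listed replicate, with values of 14.9 and 23.2, heights of 23 and 30 fragments, a score of 922 and a global IDR of 0.00603. It ranked 128 in the list by matched −log10 p-value, and the annotation gave it to Gm20544, a noncoding transcript of the opposite strand. Gm20544 also took a peak 976 bp upstream of Smad7, with values of 6.92 and 9.98. A peak 43.5 kb upstream of Tgfbr2 (chr9:116218682-116219677) had values of 11.5 and 18.8 and a global IDR of 0.0355, and was given to the noncoding RNA Gm4668. In all, 15 peaks of other genes lay within 100 kb of the 10 genes, 5 of them at Smad7, 3 at Tgfb2 and none at Tgfbr1, Tgfbr3 or Smad2.

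When every peak was given instead to the protein-coding gene with the nearest start, the 10 genes held 46 peaks, 5 of which were within the IDR limit of 0.05. The number for Smad7 went from 6 to 12, for Tgfbr2 from 2 to 11 and for Tgfb2 from 2 to 9, while Tgfbr3 went from 4 to 3 and Smad3 from 2 to 1. Tgfb1 and Smad2 stayed at 0. The Tgfb2 gain came from 7 peaks of the noncoding gene A730004F24Rik, 118.7 kb to 256.5 kb from the start of Tgfb2. The Tgfbr2 gain came from 6 peaks of Gm4668, at 43.5 kb to 208.4 kb, and 3 of Rbms3, at 415.9 kb to 455.6 kb. That of Smad7 came from 3 peaks of Gm20544, at 1 kb to 25 kb, and 3 of Gm10532, at 77.1 kb to 158.8 kb.

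The 25 peaks were compared with the list as a whole. By the authors' annotation 12 (48%, 30.0% to 66.5%) were at promoters, against 21.3% of the list, 8 (32%) were in introns, against 35.9%, and 4 (16%) were distal intergenic, against 37.2%. Measured from the annotated start of each gene, 9 summits at 6 genes lay within 3 kb. The median matched value of the 25 was 6.15, and 17 were at or above the list's median of 5.53. The promoter peaks had a median of 5.63 and the other 13 a median of 7.42, while promoter and other peaks of the list had medians of 5.42 and 5.67. Peaks of 1 gene share their surroundings and are not replicates, so these values were not tested.

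**Figure D3:**
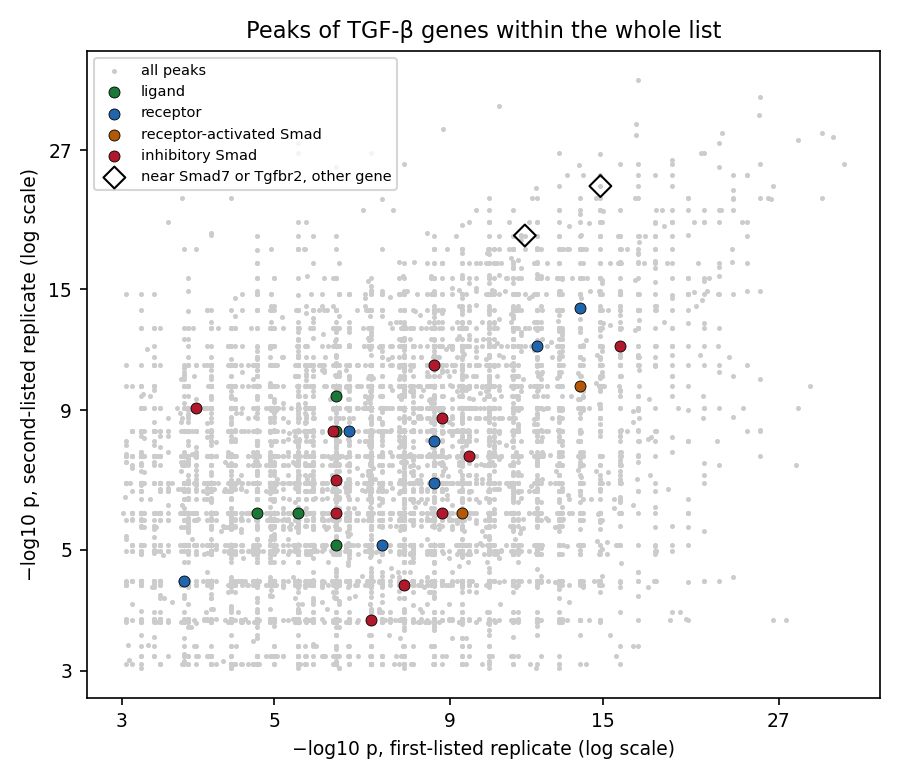
−log10 p-values in the first-listed (horizontal axis) and second-listed (vertical axis) replicate, on log scales, for all 13977 peaks. The 25 peaks of the TGF-β genes are marked by role. Diamonds mark peaks near Smad7 and Tgfbr2 given to other genes, only those with a global IDR at or under 0.05. Of the 25, 8 lay above the list's median in both replicates (32%, against 24.9% of the list).

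The summits of these genes were also richer in GC. The median GC content of the 201 bp window was 53.2%, against 43.8% for the list, and 23 of the 25 were above the list's median. The DNA 1000 bp to either side was GC-rich too, at 50% against 42.5%, and 13 of the 25 summits had more GC than their own flanks, against 58.6% of the list. By region, the promoter summits of these genes had a median GC content of 50%, against 48.8% for promoter peaks of the list. Their other summits had a median of 54.2%, against 42.8%. The part of base composition in the peak calls was not tested.

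The AP-1 sequence was in 2 of the 25 windows (8%, 2.22% to 25.0%), against 14.3% of the list, and in 4% of their flanking windows, against 3.86% of those of the list. This share depended on the window, since it was 16% at the summits of the second-listed replicate alone, 8% at those of the first-listed one and 24% over whole peaks. Whole peaks had a median width of 633 bp, and no share of the list is given for them or for the summits of either replicate. The TEAD sequence was in 3 windows (12%, 4.17% to 30.0%), against 7.45% of the list, and in 0 of 50 flanking windows (95% Wilson upper bound 7.13%), against 3.27% of those of the list. The SMAD sequence CAGAC, the short element that Smad3 and Smad4 contact, was in 8 (32%), against 36.6% of the list. In the flanking windows of the same peaks CAGAC was in 26 of 50 (52%, 38.5% to 65.2%), against 34.2% of those of the list. The SMAD palindrome GTCTAGAC was in 0 of 25 windows (upper bound 13.3%) and 0 of 50 flanking windows (upper bound 7.13%), and in 20 windows of the list (0.143%). The words TTTCAT and TTTCCT, searched as well, were in 12 windows (48%), against 43.1% of the list, and in 32% of flanking windows, against 39.4%. A match to these letters is a description of the window only.

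The rest of the pathway was described from a list of 42 genes. A peak was assigned to 22 of them, with 84 peaks in all, and 3 had one within the IDR limit of 0.05. The shares over all protein-coding genes were 20.0% and 1.63%, and a peak was assigned to 12.3% and 46.1% of genes under 50 kb and of 50 kb or more. The 42 genes were not divided by length here, so their count has no background of matched length. By role, a peak was found at 6 of 10 genes of latent complexes, storage and activation, 3 of 7 other receptors, 10 of 15 Smad partners and regulators, and 3 of 10 target genes.

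The peaks within the IDR limit lay at Smurf2, a Smad regulator, and at Ltbp1 and Itgav of the latent complex and activation group. Smurf2, a ubiquitin ligase that targets Smads and receptors, had an intergenic peak (chr11:106953844-106954995) with values of 18.2 and 21.0 and a global IDR of 0.00275. Ltbp1, which binds latent TGF-β to the matrix, had a peak in intron 3 (chr17:75110283-75111542) with values of 16.8 and 24.3 and a global IDR of 0.00269. Itgav, the αv integrin subunit that helps to release active ligand, had an intergenic peak (chr2:83713716-83715193) with values of 16.9 and 13.7 and a global IDR of 0.0166. These 3 matched values were close to or above that of the Tgfbr3 intron 4 peak.

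**Figure D4:**
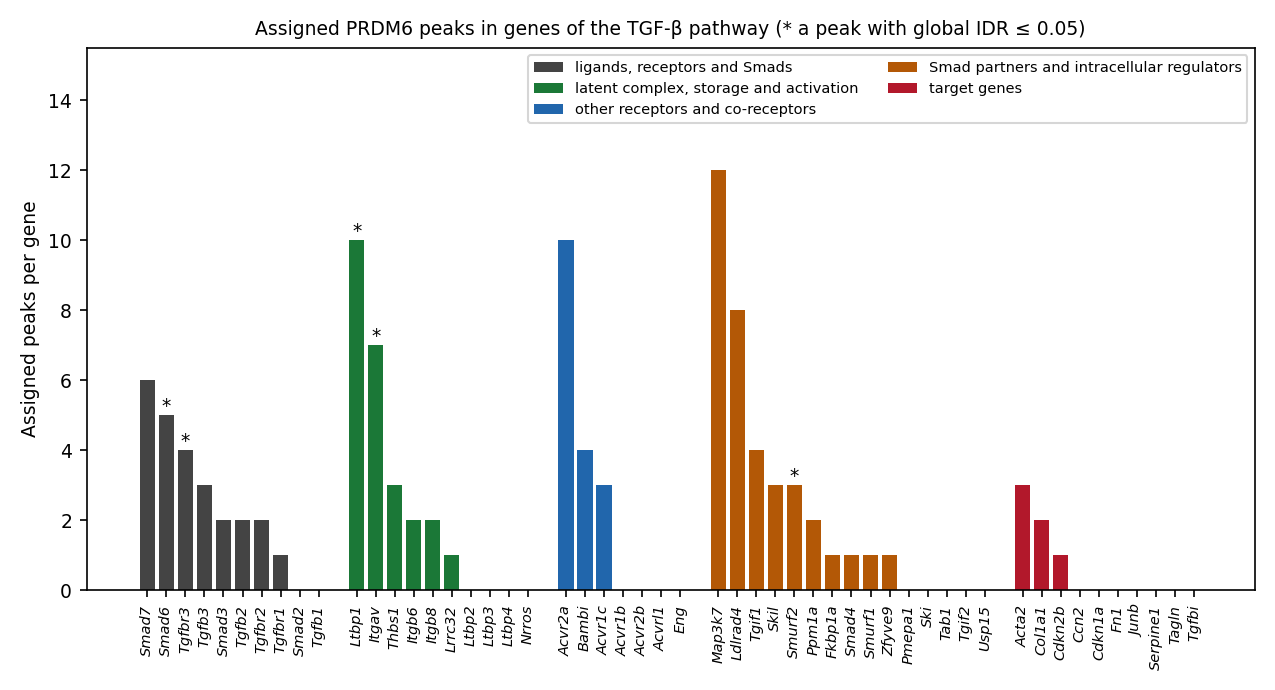
Number of assigned peaks for the 10 ligand, receptor and Smad genes and the 42 other genes of the pathway, by role, with an asterisk over genes with a peak within the IDR limit of 0.05. Map3k7 had 12 peaks, Ltbp1 and Acvr2a 10 each, Ldlrad4 8 and Itgav 7, and 20 of the 42 had none.

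The gene with the most peaks, the kinase gene Map3k7, had none within 10 kb of its start, and the nearest lay 32.0 kb from the gene. The activin receptor gene Acvr2a had 10 peaks, of which 1 lay within 100 kb of the gene. Of the target genes, Acta2, which encodes SMC α-actin, had 3 peaks, the strongest over its start with values of 7.59 and 7.42. The collagen gene Col1a1 had 2 peaks, the stronger at 12.03 and 7.31, and the cell-cycle inhibitor gene Cdkn2b had 1, at 4.04 and 4.31. Peaks that overlapped the target genes Ccn2 and Fn1 were assigned to neighbours. The stronger peak at Ccn2 had values of 4.71 and 14.9, and the peak at Fn1 had values of 13.9 and 8.27.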

How the data were processed

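After quality filtering and trimming, the authors aligned read pairs to mm10 with BWA. MACS2 called the peaks of each immunoprecipitation over the matching Input, and the peaks of both were then matched by IDR and annotated. The deposited score is the global IDR on a log scale, with 540 equal to 0.05 and 830 equal to 0.01. The deposited −log10 values are MACS2 p-values, one per replicate, and −log10 IDR values. The signal and q-value columns held a placeholder in all 13977 rows, and the annotation's q-value column repeated the second-listed p-values. The study calls the immunoprecipitations independent replicates in one place and made from the same sample in another, so the spread between them may be technical. Library totals were not given in the sources used here.

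Peak heights were recovered where a p-value lay within 0.0002 of a Poisson tail, which held for 58.3% of first-listed and 63.5% of second-listed values. The recovery and the motif search were tested on simulated data. Sequence came from GRCm38 (RefSeq) and gene models from GENCODE M21 basic, both mm10. Wilson intervals (95%) cover counting error only. The tools were SciPy 1.17.1, pysam 0.24.0, pandas 2.3.3, matplotlib 3.10.9 and NumPy 2.4.6 under Python 3.11.15. The genes, gene lists, motifs and alternatives were chosen with earlier results of these data known. Every peak of the 10 genes was named, and of other pathway genes those with the most peaks, each with a peak within the IDR limit of 0.05, and each target gene with a peak.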

Additional observations from a re-analysis of the deposited data

How the results depend on the processing

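The count of 8 genes with a peak was the same within 100 kb or 10 kb of the transcript start that the annotation used, by the nearest protein-coding start, and on the gene or within 5 kb of it. A global IDR limit of 0.05 left 2 genes and 2 peaks, and a limit of 0.01 left 0 of each. Of the 25 peaks, 15 lay within 10 kb of that transcript start. For Tgfbr3 and Smad3 that is not the start of the gene, and neither had a summit within 10 kb of the latter. By the nearest protein-coding start 46 peaks were counted, among them peaks that the annotation gave to other genes. Of the 42 other pathway genes, 3 kept a peak at an IDR limit of 0.05 and 2 at 0.01. The median value of 6.15 was 7.17 to 7.42 in either replicate alone, each of which is at least the smaller value by construction, and 12.8 at an IDR limit of 0.05. The 2 peaks under that limit became 4 at a limit of 0.1, 0 at 0.01 and 0 by local IDR. With only 2 peaks left at an IDR limit of 0.05, the shares at promoters, with an AP-1 and with a TEAD sequence were each 0%. The SMAD sequence was in 16% of peaks within 50 bp of the summit and in 64% of whole peaks, which are shorter and longer windows. The AP-1 share of 8% was 8% to 16% at the summits of either replicate alone, 4% within 50 bp and 24% over whole peaks. At an IDR limit of 0.05 the intron share went from 32% to 50% and the SMAD share from 32% to 50%, each 1 of 2 peaks. In all, 27 alternatives kept a count within 1.5 times, a share within its Wilson interval, or the median value unmoved. The other 19 alternatives moved the result beyond these limits.

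No paired analysis was possible because the matched list holds 1 value per peak and replicate for the PRDM6 ChIP group alone. Heights were recovered for 17 first-listed and 19 second-listed values of the 25 peaks, and read totals were not given in the sources used here, so the effect of depth on the weak peaks was not tested.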
